A study of Mus musculus with 15 samples.

Results

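Heterozygote oocytes of 2 mouse lines were compared with each other, gene by gene: 3 replicates from Padi6 heterozygotes (het) on the FVB/N background against 2 replicates from Tle6 heterozygotes on the C57BL/6J background. They were chosen by genotype alone, and make up 7 of the 15 libraries and 5 of the 12 biological replicates of the study. All were oocytes at the germinal vesicle (GV) stage, and each library was made from polyadenylated RNA of 15 oocytes. For each Tle6 het replicate there was a pair of technical libraries (1A and 1B, 2A and 2B), which were summed. The FVB/N group thus carried 1 disrupted Padi6 allele and the C57BL/6J group 1 disrupted Tle6 allele, and no group was wild type at both genes. The study also holds knockout (KO) oocytes of the same lines, 3 Padi6 KO replicates on FVB/N and 4 Tle6 KO replicates on C57BL/6J. Strain and mutant line moved together in these samples and cannot be told apart from each other or from any batch that followed the lines. The genotype field calls both groups heterozygote, while the bracketed names in the titles say WT, and the genotype field was followed here. The labels give neither batch, age nor animals, and p-values therefore cover only the spread between these samples.

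The GV oocyte is fully grown, is arrested in meiotic prophase, and makes little new RNA until after fertilisation. Its stored transcripts and proteins carry the egg through meiosis and the start of embryonic development. Many of these proteins are held in the subcortical maternal complex and on the cytoplasmic lattices, fibrous arrays that need both TLE6, one of its subunits, and the deiminase PADI6. Inbred strains differ in the regulatory and coding sequence of many genes, so that transcripts can be present in the egg of one strain and nearly missing from that of another.

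Counts in genes ranged from 37385610 to 74947533 per het library, and reads with several alignments from 12.33 to 13.66% of all reads. Of 13 oocyte markers, 13 were at 10 CPM (a gene's counts scaled to a common library size) or more in 6 of the 7 libraries, and 12 in library 2B. Libraries 1A and 1B were nearly alike (Pearson's r across genes 0.999), whereas 2A and 2B were not (0.959). Over 8385 genes at 10 CPM or more, the median absolute log2 difference was 0.06 between 1A and 1B and 0.65 between 2A and 2B, beside 0.48 between the means of the lines. The sum of libraries 2A and 2B nevertheless lay near replicate 1, so that the SD of the Tle6 het group hides this gap for many genes. Among the genes past the test, library 2A reached into the range of the FVB/N replicates for 799 of 5415 genes, against 58 for library 2B and 9 and 8 for libraries 1A and 1B. Reads of both lines were aligned to the same reference, which is C57BL/6J sequence, and its part in the FVB/N counts was not tested. Results are given for single libraries or as group means, and without library 2B where stated.

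The 2 disrupted genes came first. Tle6 was at 1321, 1166 and 1276 CPM in the FVB/N replicates, and at 476, 430, 710 and 277 CPM in libraries 1A, 1B, 2A and 2B of the C57BL/6J group. The groups did not overlap, and the mean was 1254 ± 79.7 (SD, n = 3) against 443 ± 19.6 CPM (n = 2), a log2 fold change of 1.51 ± 0.14 (SE; edgeR quasi-likelihood test, adjusted p = 4.65e-04). Padi6 was at 1746, 1594 and 1669 CPM in the FVB/N replicates and at 3004, 2831, 3073 and 1668 CPM in the 4 C57BL/6J libraries. Library 2B lay among the FVB/N values, and the difference in the sums (1670 ± 76.3, n = 3, against 2548 ± 544 CPM, n = 2; log2 fold change -0.60 ± 0.16, edgeR adjusted p = 0.0281) was lost in 4 of the 5 tests with 1 replicate left out (adjusted p up to 0.115) and with total count scaling (-0.30, adjusted p = 0.199). Without library 2A, Padi6 did not pass either (-0.53, edgeR adjusted p = 0.11). The mean of each gene was lower in the line in which 1 of its alleles was disrupted, where strain and allele cannot be told apart. Of the 20 tested neighbours of Padi6, 6 were higher and 1 lower, and of those of Tle6 4 were higher and 3 lower (35% past the test in each, beside 28.2% of all genes).

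Across the transcriptome, 5415 of 19220 genes tested, or 28.2%, differed between the lines at an adjusted p under 0.05. Of these, 2501 genes (13% of those tested) were higher in FVB/N and 2914 (15.2%) were lower. At least 2-fold differences were found for 1819 genes higher and 1825 lower, at least 4-fold ones for 762 and 688, and at least 16-fold ones for 191 and 223. The replicates of the lines did not overlap for 10813 genes, which is 56.3% of those tested, so that lack of overlap alone sets few genes apart in 3 against 2 replicates. Without library 2B, 2260 genes passed (1131 higher, 1129 lower), of which 2154 were among the 5415. The balance of directions depended on the scaling. With total counts in place of TMM, 4212 genes were higher and 1822 lower, a share of 69.8% higher against 46.2%, and the median log2 fold change of all genes moved from 0.03 to 0.34. Differences below are relative to the TMM scale.

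**Figure D1:**
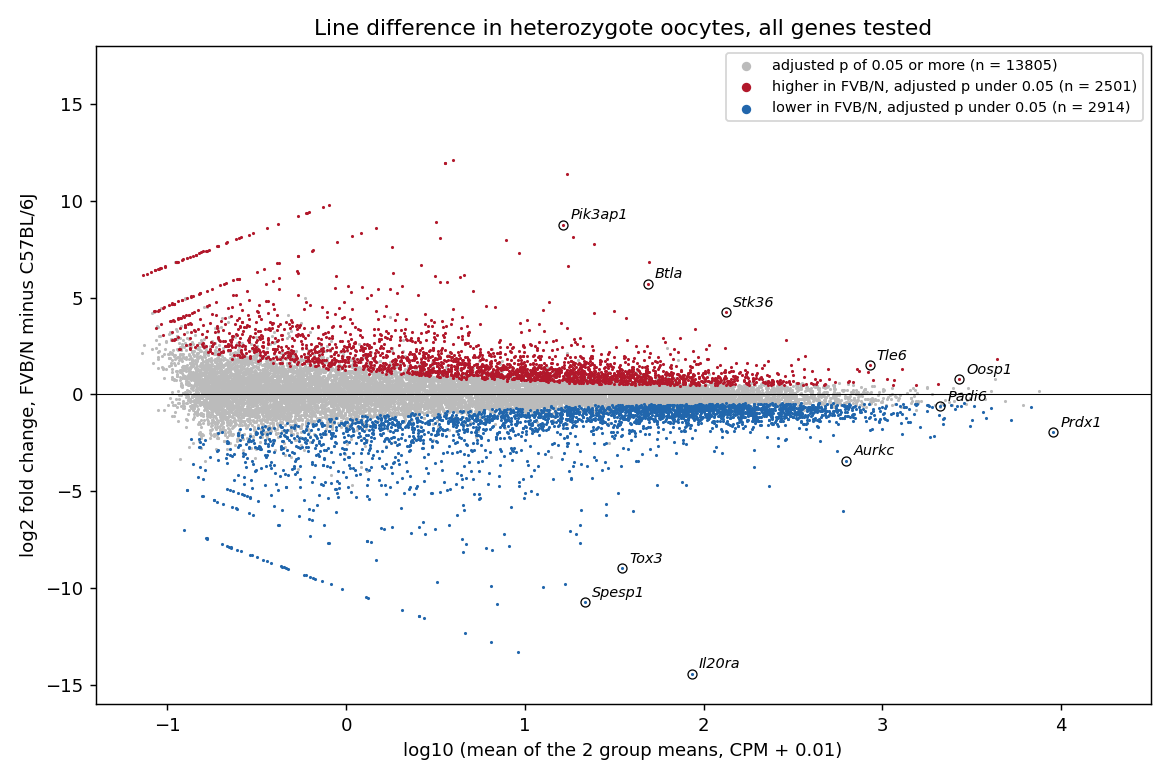
Each point is 1 of the 19220 genes tested, with the log10 of its mean level in CPM on the x axis and the log2 fold change of FVB/N over C57BL/6J het oocytes on the y axis. Red and blue points passed the edgeR test (2501 higher, 2914 lower), and among the genes of highest level the blue points outnumber the red.

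Among abundant transcripts past the test, more were lower than higher in FVB/N. Of 157 genes whose higher group mean was 1000 CPM or more, 13 were higher and 78 lower, and of 2465 genes from 100 to 1000 CPM, 249 were higher and 908 lower. From 10 to 100 CPM the split was even (995 and 994), and under 1 CPM more genes were higher (422 and 240). With total count scaling the 100 to 1000 CPM class held 507 higher and 522 lower genes, and the class from 1000 CPM held 25 and 51. Without library 2B these classes held 90 and 229, and 4 and 13. In the KO oocytes of the same lines they held 302 higher and 531 lower, and 16 and 42. The 1000 genes of highest count took 57.1 to 57.7% of the counts in the FVB/N libraries, 61.4 and 61.5% in libraries 1A and 1B, and 58.9 and 65.2% in libraries 2A and 2B. The part of this in the split was not tested.

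Of the genes higher in FVB/N, the largest fold among protein-coding genes at 10 CPM or more, with Gm and Rik names left out, was that of Pik3ap1, an adaptor between B cell receptor signalling and PI3 kinase. It was at 35.8, 32.3 and 29.8 CPM in FVB/N and between 0.0305 and 0.145 CPM in the 4 C57BL/6J libraries (log2 fold change 8.78 ± 0.35, edgeR adjusted p = 1.29e-05). Manba, the lysosomal beta-mannosidase, was at 109, 89.6 and 96.7 CPM against 1.28, 1.34, 0.988 and 0.190 CPM in libraries 1A, 1B, 2A and 2B. Btla, an inhibitory receptor of lymphocytes, was at 104, 94.6 and 87.3 CPM against 1.63, 1.80, 4.45 and 0.584 CPM. No library of one line came near the other for any of these 3 genes. The kinase gene Stk36 was at 300.1, 212.5 and 247.2 CPM against 14.9, 15.1, 18.7 and 8.48 CPM, the highest level among these genes. Plcl1, which encodes a phospholipase C-like protein without lipase activity, was at 15.9, 15.3 and 15.6 CPM and had 11 counts in all in the C57BL/6J group. The PRAME-like gene D5Ertd577e (48.2 ± 1.97 CPM, n = 3, against 0.216 ± 0.144, n = 2), March11, which encodes a membrane ubiquitin ligase (26.2 ± 4.54 against 0.954 ± 0.185), Pla2g4f, a cytosolic phospholipase (11.6 ± 2.76 against 0.488 ± 0.439), the receptor gene Gpr142 (13.1 ± 0.0655 against 0.563 ± 0.115) and Ccdc38 (46.3 ± 5.67 against 2.51 ± 0.559) completed the 10 genes of largest fold under this rule. The protein-coding gene 4930524B15Rik, left out for its name, had a log2 fold change of 7.30. All 10 passed the test in every alternative run, with adjusted p from 7.67e-172 to 0.0162 across them. D5Ertd577e has near-identical copies, and its counts are uncertain.

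Il20ra, a chain of cytokine receptors, had the largest fold of the genes lower in FVB/N under the same rule, which left out 5730507C01Rik (-9.94) and 4930562C15Rik (-9.80). It had 1 count in the 3 FVB/N replicates together, and was at 278, 273 and 191 CPM in C57BL/6J libraries 1A, 1B and 2A but at 0.0316 CPM in library 2B. The ratio of counts was 27080 (95% interval 4861 to 1070000, counting error only), and the lone low library makes the C57BL/6J mean 172 ± 148 CPM (n = 2). Iqcf1, of a family of IQ motif genes known from testis, had no count in FVB/N and 16.8, 15.3, 30.1 and 15.5 CPM in the 4 C57BL/6J libraries, at least 1048-fold lower in FVB/N with the floor of 3 counts taken over the group. Spesp1, known as a protein of the sperm equatorial segment, had 0.0378, 0.0189 and 0.0159 CPM against 33, 31.2, 63.7 and 49.2 CPM (log2 fold change -10.72 ± 0.43, edgeR adjusted p = 1.29e-05). Tox3, which encodes an HMG box protein, had 0.0946, 0.170 and 0.143 CPM against 52.3, 55.8, 26.9 and 119 CPM. For these last 3 genes all 4 C57BL/6J libraries stood far above FVB/N. Slco1a4, an organic anion transporter, was at 0.0484 ± 0.0403 against 12.1 ± 3.92 CPM, and Extl1, of the exostosin-like glycosyltransferases, at 0.0677 ± 0.0551 against 16.2 ± 1.60 CPM. Entpd1, the ectonucleotidase CD39, was at 0.191 ± 0.0691 against 40.6 ± 5.72 CPM. Fxyd6, a regulator of the sodium pump, was at 0.260 ± 0.105 against 38.2 ± 28.4 CPM, with 13.9 CPM in library 2B. Gstk1, a glutathione transferase, was at 0.258 ± 0.0930 against 35.3 ± 1.92 CPM, and Prr18 at 0.368 ± 0.216 against 40.3 ± 2.23 CPM. The 10 genes passed the test in every alternative that gave them a value, with adjusted p from 4.88e-278 to 0.0091. Without library 2A, where replicate 2 is library 2B alone (0.0316 CPM), Il20ra was not tested.

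A transcript was counted as present in one line and near zero in the other when it passed the test, was at 10 CPM or more in each replicate of one line and under 1 CPM in each replicate of the other, limits that were set after the values were seen. There were 21 such genes in C57BL/6J, 15 of them protein-coding, and 8 in FVB/N, 5 of them protein-coding. All 29 passed in the same direction without library 2B, with the replicate block and in each fit with 1 FVB/N replicate left out. Without library 2A 28 did, Il20ra having no value. These fits reuse the samples by which the genes were chosen, so that they give no independent support. The count depended on the limits, with 71 genes at a lower limit of 5 CPM and 13 at 20 CPM. Antisense genes and pseudogenes are among the 29, and their counts are uncertain because no source used here gives the strand setting of the counting. Of the 20 protein-coding genes, 3 are shown here with the reference sequence before their RefSeq start on GRCm38.p6, from base 250 to base 1 upstream and 5′ to 3′ on the gene's strand, because their transcripts were near zero in one line. The capitals mark TAATTG, the site of the oocyte transcription factor NOBOX, searched on both strands. The reference is C57BL/6J sequence, FVB/N sequence was not used here, and the start that oocytes use was not tested.
Pik3ap1 (present in FVB/N), chr19:41385103-41385352, minus strand: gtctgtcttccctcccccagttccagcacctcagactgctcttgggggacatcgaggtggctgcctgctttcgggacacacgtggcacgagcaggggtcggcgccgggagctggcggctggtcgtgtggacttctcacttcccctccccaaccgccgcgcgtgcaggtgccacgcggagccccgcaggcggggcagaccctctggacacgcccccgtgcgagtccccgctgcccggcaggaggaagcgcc
Gstk1 (present in C57BL/6J), chr6:42245685-42245934, plus strand: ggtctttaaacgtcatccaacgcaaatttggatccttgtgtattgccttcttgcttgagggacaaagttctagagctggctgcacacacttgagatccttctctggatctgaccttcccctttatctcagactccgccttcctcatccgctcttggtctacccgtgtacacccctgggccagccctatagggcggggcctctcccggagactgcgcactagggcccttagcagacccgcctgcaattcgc
Fxyd6 (present in C57BL/6J), chr9:45369935-45370184, plus strand: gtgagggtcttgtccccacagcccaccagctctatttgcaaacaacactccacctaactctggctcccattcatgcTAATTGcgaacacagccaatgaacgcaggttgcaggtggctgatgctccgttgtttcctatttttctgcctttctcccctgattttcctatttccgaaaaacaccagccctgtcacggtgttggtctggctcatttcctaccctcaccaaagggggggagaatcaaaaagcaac
The window was found for 19 of the 20 protein-coding genes. TAATTG on either strand was in 2 of the 19 (in Fxyd6 at base 174 before the start), beside 7.2% of all 32851 windows of the same length. The TATA box TATAAA, on either strand, was in 0 of the 19 beside 12.4% of all windows. A match is only these letters in this window.

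**Figure D2:**
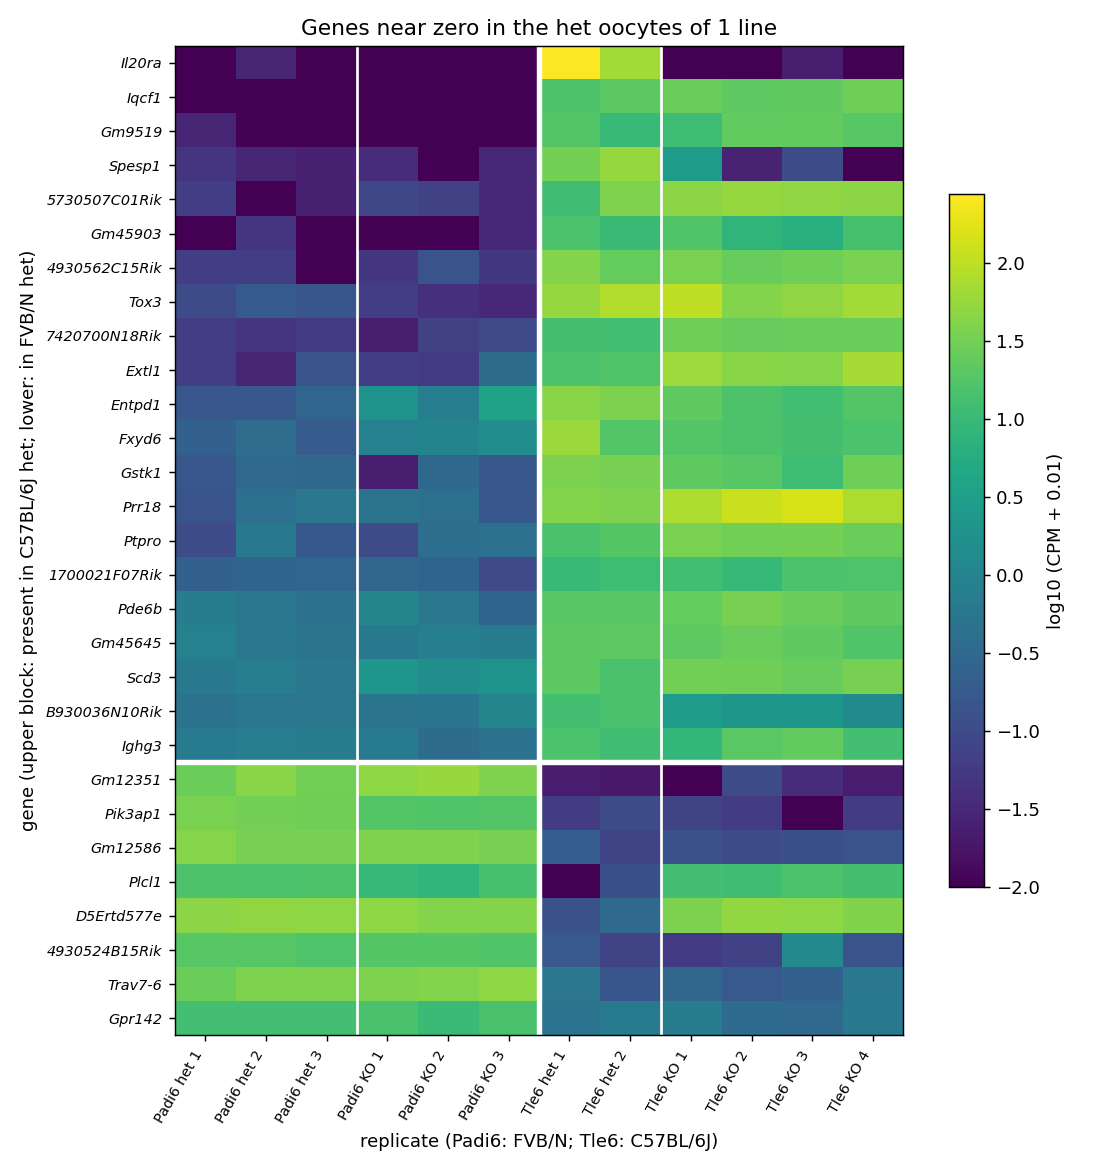
Rows are the 29 genes near zero in the het oocytes of 1 line, columns are the 12 biological replicates, and colour is the log10 of CPM + 0.01. In Padi6 KO, 16 of the 21 upper genes were under 1 CPM in all 3 replicates and 7 of the 8 lower genes at 10 CPM or more, and in the Tle6 KO columns Il20ra and Spesp1 are dark while Plcl1 and D5Ertd577e are bright.

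Genes known to vary between laboratory strains were listed to set the labels beside the data. Of 14 tested, 1 was higher and 4 were lower in FVB/N (35.7% past the test, beside 28.2% of all genes). The median log2 fold change was -0.19, beside 0.03 over all genes. Pde6b encodes the rod photoreceptor phosphodiesterase, and FVB/N is known to carry its retinal degeneration allele. It was at 0.719, 0.547 and 0.446 CPM in FVB/N and at 20.1, 19.2, 32.3 and 12.1 CPM in the C57BL/6J libraries, a log2 fold change of -5.08 ± 0.28 (edgeR adjusted p = 5.87e-05). The same gene was at 0.255 to 1.04 CPM in the 3 Padi6 KO and 22.7 to 33.5 CPM in the 4 Tle6 KO replicates. Alad, which encodes an enzyme of haem synthesis and is known for copy number differences between strains, was at 48.9, 44.0 and 48.9 CPM against 14.1, 12.6, 5.72 and 10.3 CPM (2.10 ± 0.24, adjusted p = 9.12e-04). Trim30d was at 0.166 ± 0.0944 (n = 3) against 5.88 ± 3.57 CPM (n = 2). The antiviral gene Mx1 (-1.46) and the zinc finger gene Zfp69 (-0.66) also passed, but not without library 2B (edgeR adjusted p = 0.0773 and 0.371) or without FVB/N replicate 3, and Zfp69 not without replicate 1 or 2 either (adjusted p up to 0.0530 and 0.0900). Nnt, known for its deletion in C57BL/6J, had 2 counts in each group and gives no information on the strain.

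Of the other 7 members of the list for the subcortical maternal complex and lattice, only Zbed3 passed the test. With Tle6 and Padi6 counted, 33.3% of the list passed, beside 28.2% of all genes. The rest of the list did not pass. Ooep, at the highest level, was at 7274, 8885 and 7952 CPM in FVB/N and 8149, 7817, 6242 and 6017 CPM in the C57BL/6J libraries (log2 fold change 0.20 ± 0.18, edgeR adjusted p = 0.434). Nlrp5 was at 930 ± 80.9 CPM (n = 3) against 970 ± 159 (n = 2), Nlrp4f at 1239 ± 172 against 1282 ± 211, Nlrp2 at 357 ± 33.8 against 380 ± 97.1, Nlrp14 at 3357 ± 334 against 2687 ± 878, and Khdc3 at 264 ± 92.5 against 187 ± 100.3 CPM. Their log2 fold changes ran from -0.08 to 0.51, those of Nlrp5, Nlrp4f and Nlrp2 turned positive with total count scaling (0.24, 0.26 and 0.23), and there Nlrp14 passed (0.64, adjusted p = 0.0446). With 1 replicate left out, Nlrp14 passed without Tle6 het replicate 2 (0.70, edgeR adjusted p = 0.018) and Khdc3 without Tle6 het replicate 1 (1.19, adjusted p = 0.0375). Zbed3 was at 5135, 5646 and 5262 CPM against 8224, 8439, 6946 and 9042 CPM (-0.63 ± 0.13, adjusted p = 0.0115; -0.42 and 0.249 without library 2B, 0.0724 without FVB/N replicate 3). Of 12 genes of the oocyte NLRP family tested, Nlrp4b (684 ± 61.2 against 1245 ± 240 CPM) and Nlrp4a (1465 ± 87.3 against 2203 ± 342 CPM) were lower and 10 did not pass (16.7% past the test, beside 28.2% of all genes). Neither passed without library 2B (adjusted p = 0.109 and 0.271), nor did Nlrp4a without any 1 of the FVB/N replicates or without Tle6 het replicate 2 (up to 0.108). Genes of this family are near-identical in part, and their counts are uncertain.

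Prdx1, a peroxiredoxin that removes hydrogen peroxide, was the most abundant gene past the test. It was at 3310, 3477 and 4391 CPM in FVB/N, at 13420 CPM in library 1A and 13540 CPM in 1B, and 2A and 2B had 3648 and 21580 CPM. Library 2A thus lay among the FVB/N replicates. The mean was 3726 ± 582 (n = 3) against 14370 ± 1270 CPM (n = 2), a log2 fold change of -1.94 ± 0.16 (edgeR adjusted p = 2.83e-04), which without library 2B was -1.17 (adjusted p = 0.188). Cpeb1, which holds stored mRNA with short poly(A) tails, was at 2338, 3090 and 3518 CPM against 8677, 8658, 2689 and 8313 CPM, and Rdx, which links actin to the membrane, at 2286 ± 263 against 5330 ± 403 CPM. Neither passed without library 2B (-0.89, adjusted p = 0.277, and -0.79, adjusted p = 0.108). Ldhb, a lactate dehydrogenase subunit, was at 3371, 2845 and 3018 CPM against 4778, 4539, 7523 and 4068 CPM, lower in FVB/N in each library and past the test without library 2B (adjusted p = 0.0415) but not without FVB/N replicate 3 (0.0612). Of the abundant genes higher in FVB/N, Oosp1, which encodes an oocyte secreted protein, was at 3975, 3172 and 3009 CPM against 1968, 2010, 3660 and 1028 CPM. The ubiquitin ligase gene Rnf114 was at 1345 ± 82.8 against 766 ± 42.0 CPM and Slc45a3, a solute carrier, at 1449 ± 213 against 860 ± 42.4 CPM. The oocyte linker histone gene H1foo was at 2422 ± 156 against 1662 ± 134 CPM and the cyclin gene Ccno at 1786 ± 121 against 1286 ± 22.7 CPM. None of these 5 passed without library 2B (adjusted p from 0.114 to 0.339), and H1foo and Ccno also failed without any 1 of the FVB/N replicates or without Tle6 het replicate 2 (up to 0.118 and 0.142).

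**Figure D3:**
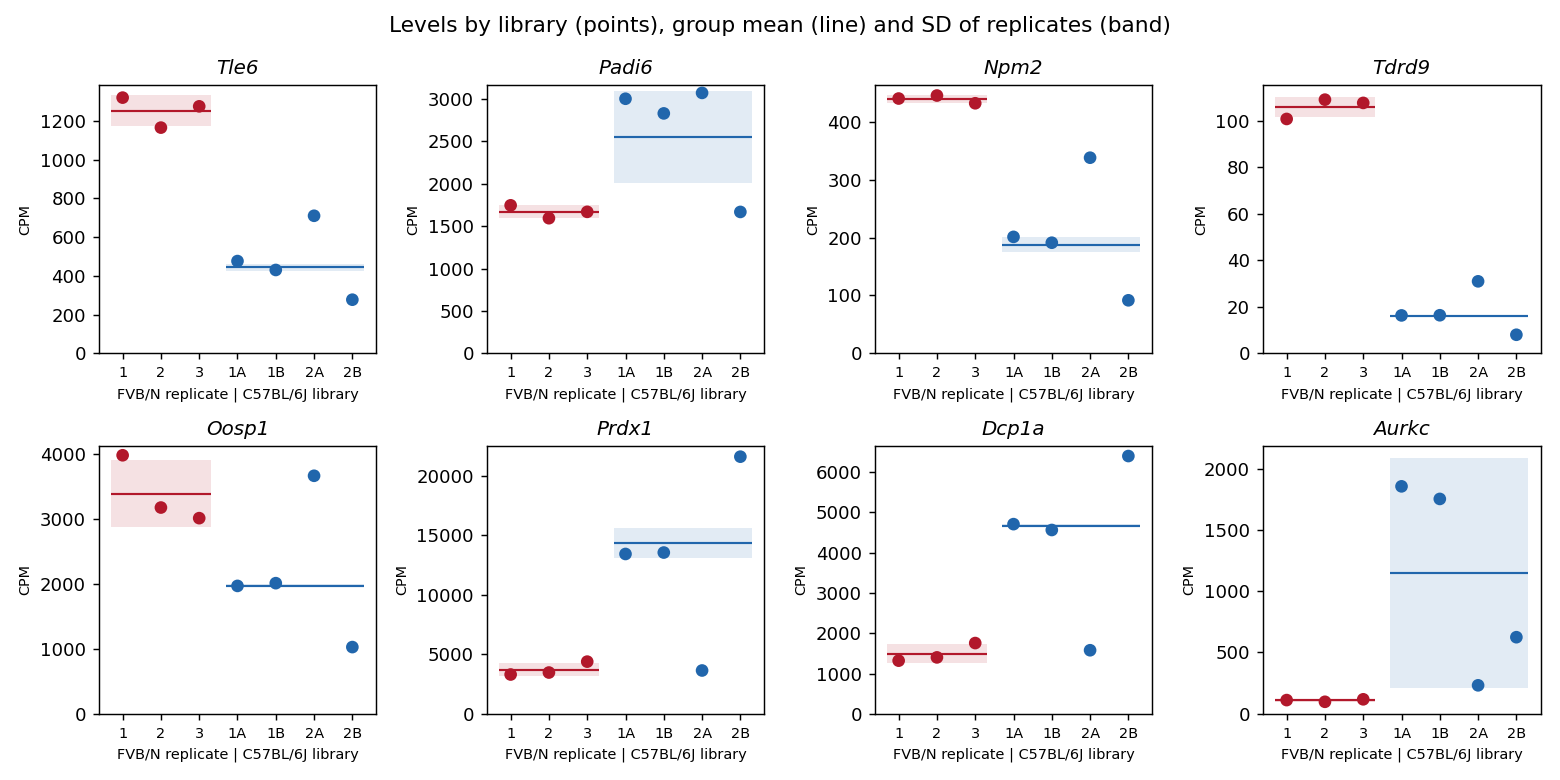
Points are CPM of 8 genes in the 3 FVB/N replicates (red) and the 4 technical libraries of the 2 C57BL/6J replicates (blue), lines are group means and bands ± 1 SD of the replicates after technical libraries were summed. Npm2 and Tdrd9 are higher in each FVB/N replicate than in any blue library, whereas for Oosp1, Prdx1 and Dcp1a library 2A lies at the level of FVB/N, and for Padi6 library 2B does.

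Genes of the egg surface and of the oocyte's own signals differed one by one. In the list for the egg coat and fertilisation, 3 of 13 genes were higher in FVB/N and 0 lower (23.1%, beside 28.2% of all genes). Astl encodes ovastacin, the protease that cleaves the zona pellucida after fertilisation. It was at 649.7, 741 and 739 CPM in FVB/N against 313, 303, 329 and 231 CPM in the C57BL/6J libraries (log2 fold change 1.32 ± 0.16, edgeR adjusted p = 0.00115), with no overlap of libraries. Oosp1 and Zp1, a zona pellucida glycoprotein (506 ± 72.7 against 350 ± 38.5 CPM), were the others, and Astl alone of the 3 passed without library 2B. In the list of oocyte signals and gap junction genes, 1 of 14 was higher and 4 lower (35.7%). Npm2, which encodes nucleoplasmin of oocyte chromatin, was at 440.4, 446 and 432 CPM against 201, 191, 338 and 91.5 CPM (1.24 ± 0.14, adjusted p = 0.00102). Pde3a, the phosphodiesterase that lowers cAMP in the oocyte, was at 498, 556 and 550.1 CPM against 1365, 1409, 821 and 1369 CPM (-1.25 ± 0.15, adjusted p = 0.00106; -0.97 and 0.0728 without library 2B). The growth factor gene Bmp15 (2440 ± 142 against 3315 ± 187 CPM), Kit (256 ± 17.5 against 384 ± 106 CPM) and Prkar2b were also lower, and without library 2B the list held 1 higher gene and 0 lower ones.

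Of 13 oocyte transcription factor genes, 4 were higher and 3 lower in FVB/N (53.8%, beside 28.2% of all genes; 2 and 1 without library 2B). Nobox, which drives oocyte genes from primordial follicles on, was at 229, 219 and 207 CPM against 105, 111, 176 and 72.2 CPM (log2 fold change 1.03 ± 0.14, edgeR adjusted p = 0.00213; 0.76 and 0.0562 without library 2B). Pou5f1, or Oct4, was at 10.8, 10.9 and 12.3 CPM against 4.45, 4.33, 5.26 and 3.54 CPM. Sohlh2, an early oocyte regulator, was at 5.90, 3.89 and 5.19 CPM against 20.3, 21.7, 18.9 and 13.2 CPM (-1.85 ± 0.26, adjusted p = 0.00221), and its partner Sohlh1 at 0.321 ± 0.105 against 0.0154 ± 0.0217 CPM. The lines thus differed in opposite directions in the levels of these 2 partners, of which Sohlh1 was under 1 CPM in both. Sall4 (1335 ± 304 against 3093 ± 424 CPM) and Lhx8 (405 ± 27.0 against 629.7 ± 119 CPM) were lower, and Tbpl2, the TATA-binding protein of oocytes, was higher (18.2 ± 1.37 against 9.62 ± 1.86 CPM). Without library 2B, Sohlh2 was the 1 lower gene of the list that passed, and neither Sall4 nor Lhx8 did.

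Stored mRNA is kept silent and later degraded by a set of RNA-binding and deadenylating proteins, and 17 of 34 genes of this list were past the test (50%, beside 28.2% of all genes). Of these, 5 were higher and 12 lower in FVB/N, with a median log2 fold change of -0.25 beside 0.03 over all genes. With total count scaling 10 were higher and 7 lower, and without library 2B 0 and 4. Lsm14b, a protein of mRNA storage, was at 514.5, 757 and 699 CPM in FVB/N against 3625, 3521, 1244 and 3185 CPM (-2.20 ± 0.22, edgeR adjusted p = 6.33e-04), below each C57BL/6J library. Dcp1a, a decapping subunit, was at 1321, 1402 and 1757 CPM against 4703, 4558, 1579 and 6390 CPM (-1.64 ± 0.16, adjusted p = 5.03e-04), where library 2A was at the FVB/N level, and without library 2B it did not pass (-1.02, adjusted p = 0.190). Deadenylase genes Cnot1 (223 ± 10.1 against 348 ± 1.23 CPM), Cnot7 (400 ± 43.7 against 878 ± 269 CPM) and Cnot8 (245 ± 12.6 against 350 ± 33.6 CPM), and Btg4, which brings them to maternal mRNA (1487 ± 54.5 against 2319 ± 5.45 CPM), were lower. The higher genes included Zar1 (567 ± 23.7 against 389 ± 32.9 CPM) and Zar1l (146 ± 8.47 against 89.6 ± 7.29 CPM), which bind and hold maternal transcripts, and Eif4e1b, the oocyte cap-binding protein (333 ± 31.0 against 202 ± 5.86 CPM).

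In the list for meiotic arrest, spindle and cell cycle, 6 of 42 genes were higher and 7 lower (31% past the test, beside 28.2% of all genes; 12 and 3 with total count scaling, 4 and 2 without library 2B). Aurkc, the Aurora kinase of germ cells, was at 110.4, 96.5 and 117 CPM in FVB/N. In the C57BL/6J libraries 1A and 1B it was at 1860 and 1757 CPM, and in 2A and 2B at 231 and 625 CPM, so that all 4 were above FVB/N but spread widely (108 ± 10.4, n = 3, against 1152 ± 941, n = 2; log2 fold change -3.41 ± 0.45, edgeR adjusted p = 0.00174). Fzr1, the activator that keeps the anaphase-promoting complex active in arrested oocytes, was at 83.0, 81.4 and 80.6 CPM against 36.2, 32.6, 56.8 and 12.02 CPM (1.39 ± 0.17, adjusted p = 0.00131). It is also 1 of the 4 higher neighbours of Tle6 counted above. Plk1 was higher (72.9 ± 12.2 against 30.9 ± 11.6 CPM), as was Birc5, or survivin (300.3 ± 12.3 against 180.1 ± 10.53 CPM), while the checkpoint genes Bub1 (226 ± 6.40 against 371 ± 71.0 CPM) and Mad2l1 (135 ± 20.3 against 210 ± 48.1 CPM) were lower. The cohesin genes Smc3 and Smc1b were lower, with log2 fold changes of -0.48 and -0.56. Aurkc was 1 of the 2 lower genes that passed without library 2B, so that most of the other lower genes named here did not.

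Small RNA pathways silence transposons in germ cells. Of 28 genes in this list, 4 were higher and 8 lower in FVB/N (42.9%, beside 28.2% of all genes; median log2 fold change -0.30; 9 and 6 with total count scaling, 2 and 2 without library 2B). Tdrd9, a helicase of the piRNA pathway, was at 100.7, 109 and 108 CPM against 16.3, 16.3, 30.9 and 7.94 CPM (2.72 ± 0.17, edgeR adjusted p = 7.18e-05), higher than any C57BL/6J library. Tdrd1, a Tudor scaffold of the same pathway, was at 568, 540.1 and 719 CPM against 1275, 1294, 852 and 1956 CPM (-1.22 ± 0.17, adjusted p = 0.00211; -0.73 and 0.131 without library 2B). Piwil1 was at 88.8, 112 and 128 CPM against 262, 262, 53.2 and 389 CPM, and Dicer1, which makes the endogenous small interfering RNAs of mouse oocytes, at 767, 845 and 839 CPM against 1498, 1506, 797 and 2181 CPM. In library 2A, Dicer1 lay within the FVB/N range and Piwil1 below it. The Argonaute genes went both ways, with Ago2 (49.6 ± 1.54 against 32.1 ± 4.01 CPM) and Ago4 higher and Ago3 (51.1 ± 6.76 against 93.4 ± 13.9 CPM) lower.

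Of metabolic genes, those for redox and glutathione had 5 of 38 higher and 7 lower in FVB/N (31.6%, beside 28.2% of all genes; 3 and 2 without library 2B). Besides Prdx1, the mitochondrial peroxiredoxin gene Prdx5 was at 50.6, 57.03 and 55.5 CPM against 13.8, 13.3, 13.4 and 2.76 CPM (log2 fold change 2.45 ± 0.32, edgeR adjusted p = 0.00161), so that the 2 peroxiredoxins differed in opposite directions. Gpx1 (29.7 ± 3.81 against 11.3 ± 0.650 CPM) and Gsta4 (182 ± 26.4 against 64.8 ± 29.0 CPM) were higher, and the thioredoxin gene Txn1 (24.5 ± 3.601 against 59.0 ± 7.20 CPM) and its reductase Txnrd1 (103 ± 25.7 against 313 ± 7.17 CPM) lower. In glycolysis and pyruvate use, 4 of 25 genes were higher and 3 lower (28%; 3 and 2 without library 2B). Pkm, a pyruvate kinase, was at 111 ± 11.4 against 52.4 ± 7.95 CPM, while Tpi1, triose phosphate isomerase, was at 40.6 ± 9.23 against 85.8 ± 0.280 CPM and did not pass without library 2B (adjusted p = 0.225). In lipid and cholesterol metabolism 5 of 31 were higher and 6 lower (35.5%; 2 and 1 without library 2B). Gpat4, which starts glycerolipid synthesis, was at 66.1 ± 3.95 against 29.7 ± 4.34 CPM. Acly, which makes acetyl-CoA from citrate, was at 53.1, 85.8 and 76.2 CPM against 155, 159, 87.1 and 281 CPM, and did not pass without library 2B (-0.70, adjusted p = 0.231).

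Nuclear genes of oxidative phosphorylation had 17 of 82 members higher and 8 lower in FVB/N (30.5% past the test, beside 28.2% of all genes). Their median log2 fold change was 0.24, with 49 values above 0. With total count scaling 35 were higher and 4 lower, but without library 2B 3 were higher and 4 lower, so that the balance depended on that library. Among them the complex I genes Ndufb10 (51.7 ± 3.08 against 25.1 ± 3.37 CPM) and Ndufv1 (77.6 ± 2.91 against 43.9 ± 3.16 CPM) were higher. Ndufs5, of the same complex, was at 7.40, 5.17 and 5.31 CPM against 18.2, 16.8, 20.5 and 19.6 CPM (-1.65 ± 0.24, edgeR adjusted p = 0.00239). The mitochondrially encoded share of all gene counts was 0.872% ± 0.122 (n = 3) in FVB/N and 0.256% ± 0.0158 (n = 2) in C57BL/6J (two-sided exact permutation test, p = 0.2, the smallest that 3 against 2 can give). Most of this was the large ribosomal RNA mt-Rnr2, at 5707, 7658 and 7048 CPM against 2279, 2397, 2550 and 1056 CPM (1.81 ± 0.23, edgeR adjusted p = 0.00134). Of the 11 mitochondrially encoded protein genes tested, 0 passed with edgeR. The cytochrome oxidase gene mt-Co1 was at 392 ± 26.3 against 264 ± 109 CPM, and with total count scaling 4 of the 11 were higher.

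Cytosolic ribosomal protein genes had 9 of 85 members higher and 10 lower (22.4%, beside 28.2% of all genes), mitochondrial ribosomal protein genes 11 of 76 and 8 (25%), proteasome genes 6 of 46 and 6 (26.1%), tubulins 2 of 18 and 1 (16.7%), and oocyte actin genes 3 of 26 and 4 (26.9%). With total count scaling the first 3 of these lists had 24 and 7, 20 and 6, and 12 and 3, so that more members were then higher in each, whereas on the TMM scale the cytosolic list had more lower and the proteasome list was even. Without library 2B the lists of this paragraph so far had, in the same order, 1 and 4, 1 and 2, 2 and 0, 0 and 0, and 1 and 2. Rps15a was at 483, 520 and 573 CPM against 1193, 1205, 681 and 1441 CPM, and Mrps30 at 49.1, 52.2 and 59.9 CPM against 198, 202, 107 and 252 CPM (log2 fold change -1.89 ± 0.15, edgeR adjusted p = 2.01e-04). The actin nucleator gene Actr2 was at 115, 116 and 114 CPM against 265, 280.2, 258 and 309 CPM, and Rhoa, a regulator of the cytoskeleton, at 26.0, 32.7 and 29.7 CPM against 83.3, 84.1, 74.0 and 66.8 CPM. Both of these stood apart in all 7 libraries and passed without library 2B, as did Mrps30, while Rps15a did not (adjusted p = 0.145). In the unfolded protein and heat shock list 2 of 27 were higher and 6 lower (29.6%; 1 and 2 without library 2B). The stress regulator Atf4 was at 239 ± 34.6 against 102 ± 22.5 CPM, and the chaperone gene Dnajb9 at 7.36 ± 0.743 against 16.5 ± 0.758 CPM. Of p53 targets 2 of 19 were higher and 5 lower (36.8%; 1 and 2 without library 2B), with Btg2 at 22.9 ± 1.79 against 63.5 ± 21.6 CPM.

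Among chromatin genes, 3 of 21 in DNA methylation and imprint maintenance were higher and 3 lower (28.6%, beside 28.2% of all genes; 2 and 1 without library 2B). Dppa3, which protects the maternal genome's methylation, was at 1001, 997.9 and 1146 CPM against 1683, 1669, 2243 and 1625 CPM (log2 fold change -0.74 ± 0.14, edgeR adjusted p = 0.00694). Trim28, the corepressor of zinc finger proteins, was at 128 ± 13.8 against 69.9 ± 1.61 CPM, and Ctcf at 194 ± 35.8 against 398 ± 70.4 CPM. Zinc finger genes named Zfp had 36 of 335 members higher and 61 lower (29% past the test, close to 28.2% of all genes), with 69 and 34 under total count scaling and 19 and 19 without library 2B. Zfp85 was at 2.59, 3.15 and 3.25 CPM against 34.0, 37.4, 23.9 and 38.8 CPM, and Zfp36, which encodes an RNA-binding protein and not a transcription factor, had 5 counts in FVB/N and 818 in C57BL/6J. Of 28 imprinted genes 3 were higher and 3 lower (21.4%), led by Zim1 at 0.368 ± 0.140 against 5.24 ± 0.957 CPM. Of 16 oogenesin and PRAME-like genes 3 were higher and 5 lower (50%), with Pramef8 at 16.2, 19.98 and 18.5 CPM against 88.0, 89.5, 45.9 and 119 CPM. In the oocyte OAS1 family 3 of 10 genes were higher (with Oas1d at 778 ± 118 against 504 ± 21.6 CPM) and 0 lower, 2 of 7 Obox genes were lower (Obox2 at 767 ± 84.6 against 2467 ± 209.5 CPM), and 1 of 15 genes of the oocyte Fbxw cluster was lower (Fbxw17). Oas1d, Obox2 and Fbxw17 did not pass without library 2B (edgeR adjusted p = 0.134, 0.0795 and 0.278). Copies of these families are near-identical, and their counts are uncertain. In the interferon list 2 of 24 were higher and 1 lower, and in the list for antigen presentation 0 of 9 higher and 1 lower, below the share over all genes.

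**Figure D4:**
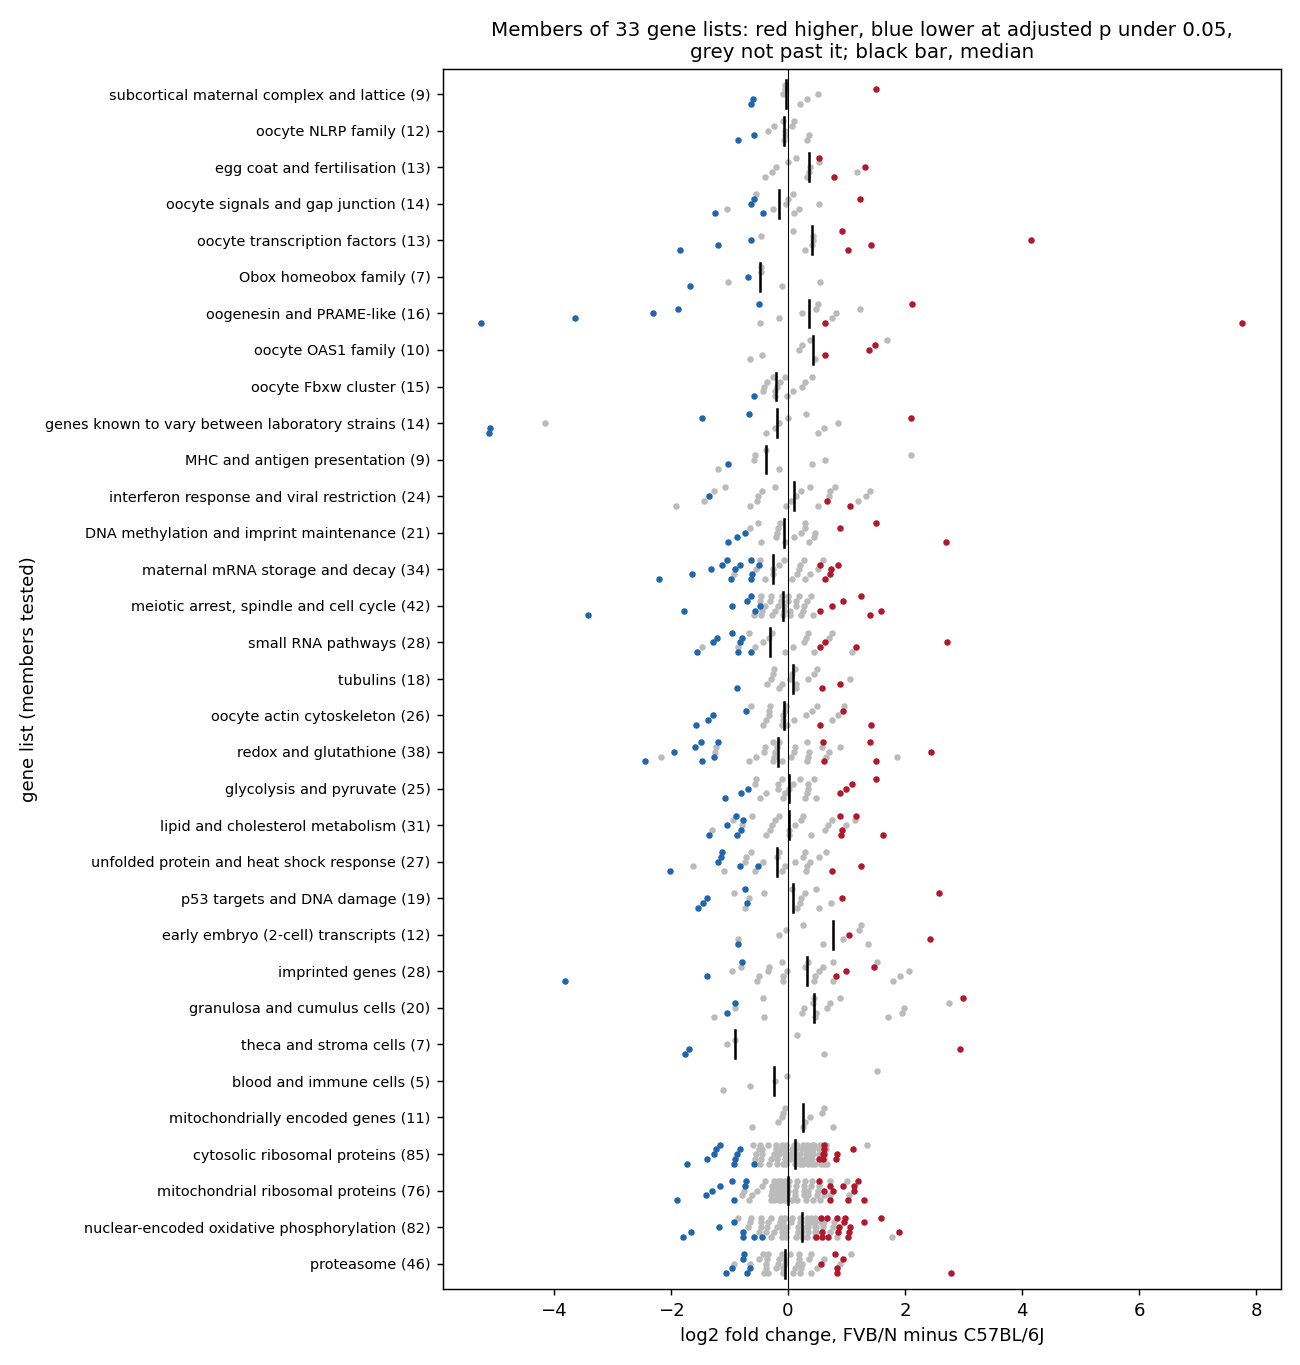
Each point is the log2 fold change (x axis, FVB/N over C57BL/6J het) of a tested member of a gene list (y axis, 33 lists, the Zfp genes left out), red or blue where it passed the edgeR test. The black bars are list medians, most of which lie within 0.5 of 0, with members past the test on both sides in most lists.

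Markers of other cells were low but not absent. Those of granulosa and cumulus cells summed to 833 ± 49.7 CPM of total counts in FVB/N (n = 3, 786 to 885) and 612 ± 102 CPM in C57BL/6J (n = 2, 540 to 684), without overlap of replicates (exact permutation p = 0.2, the smallest possible), but overlapped on the TMM scale (exact p = 0.6). Library 2A alone was at 785 CPM. Most of the sum was Serpine2, at 518 to 623 CPM in FVB/N and 360 to 634 CPM in the C57BL/6J libraries, and the defining genes Fshr, Amh and Foxl2 were at 1.02 CPM or below in all 7. Of the other markers, Nr5a2 was at 37.96 to 71.7 CPM and Fgfr2 at 85.3 to 210.5 CPM, Cyp11a1 was at 7.04, 4.87 and 22.5 CPM in FVB/N and between 0.0158 and 6.42 CPM in the C57BL/6J libraries, and Hsd3b1 and Inha reached 5.59 and 2.37 CPM in FVB/N replicate 3. Of 20 granulosa genes tested 1 was higher and 2 lower (15%, beside 28.2% of all genes). With total count scaling 5 were higher and 2 lower, and without library 2B 0 and 1. The median log2 fold change was 0.45, with 14 values above 0. Amhr2, under 1 CPM in all 7 libraries, was higher, and Fgfr2 and Cyp19a1 (26.2 ± 5.84 against 54.1 ± 11.7 CPM) were lower. Theca and stroma markers summed to 6.36 to 10.01 CPM, and blood and immune markers to 21.6 to 39.2 CPM, most of it Pecam1. Of 7 theca and stroma genes tested 1 was higher and 2 lower (42.9%), and 0 and 0 without library 2B. Of 5 blood and immune genes tested 0 passed. The part of other cells in the results was not tested, and in such bulk samples fewer cells of a type and less RNA per cell cannot be told apart.

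The same lines were compared a second time in KO oocytes, 3 Padi6 KO against 4 Tle6 KO replicates, which share no library with the het samples. There 6463 of 19240 genes, or 33.6%, passed (3271 higher in FVB/N, 3192 lower). Of the 5415 genes past the test in het oocytes, 5251 were tested in KO, 4677 had the same sign there, and 2890 passed in the same direction, 1366 higher and 1524 lower, while 85 passed in the opposite one. Of the 1291 genes tested in both that differed at least 4-fold in het, 924 passed in the same direction in KO and 21 in the opposite one. Without library 2B, 1589 genes (754 higher, 835 lower) passed in both genotypes in the same direction, 73.8% of the 2154. Over the 1450 genes that differed at least 4-fold in het oocytes, the Padi6 KO replicates lay nearer to the FVB/N het mean for 87.2 to 89.4% of genes, and the Tle6 KO replicates for 19.6 to 26.6%. Loss of Padi6 or Tle6 itself moves with this second comparison and cannot be told apart from the line.

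Of the genes near zero in 1 line, 11 of the 21 present in C57BL/6J and 5 of the 8 present in FVB/N stayed within the same limits in every replicate of both KO groups. Of the 21 present in C57BL/6J, 16 were under 1 CPM in all 3 Padi6 KO replicates and 15 were at 10 CPM or more in all 4 Tle6 KO replicates, and of the 8 present in FVB/N, 7 were so in all 3 Padi6 KO replicates and 5 were under 1 CPM in all 4 Tle6 KO replicates, while 2 were at 10 CPM or more there. Iqcf1 had 0 CPM in all 3 Padi6 KO and 21.8 to 29.2 CPM in the 4 Tle6 KO replicates, and Tox3 0.0213 to 0.0533 against 41.1 to 102 CPM. Il20ra, in contrast, was at 0 CPM in 3 Tle6 KO replicates and 0.0137 CPM in the other, as in FVB/N and in library 2B. Spesp1 was at 2.804, 0.0163, 0.0956 and 0 CPM in the 4 Tle6 KO replicates, although at 31.2 to 63.7 CPM in the Tle6 het libraries. Plcl1 was at 12.2 to 15.4 CPM, D5Ertd577e at 36.5 to 51.9 CPM and Stk36 at 202 to 276 CPM in Tle6 KO, near the FVB/N levels. Tle6 het was the lowest of the 4 groups of the study for these 3 genes. H2-Aa, an antigen presentation gene, was at 11.98 ± 3.55 (n = 3) against 24.6 ± 10.2 CPM (n = 2) in het but at 25.9 to 30.1 CPM in Padi6 KO and 1.19 to 2.29 CPM in Tle6 KO. Its het difference did not pass without library 2B (edgeR adjusted p = 0.607).

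**Figure D5:**
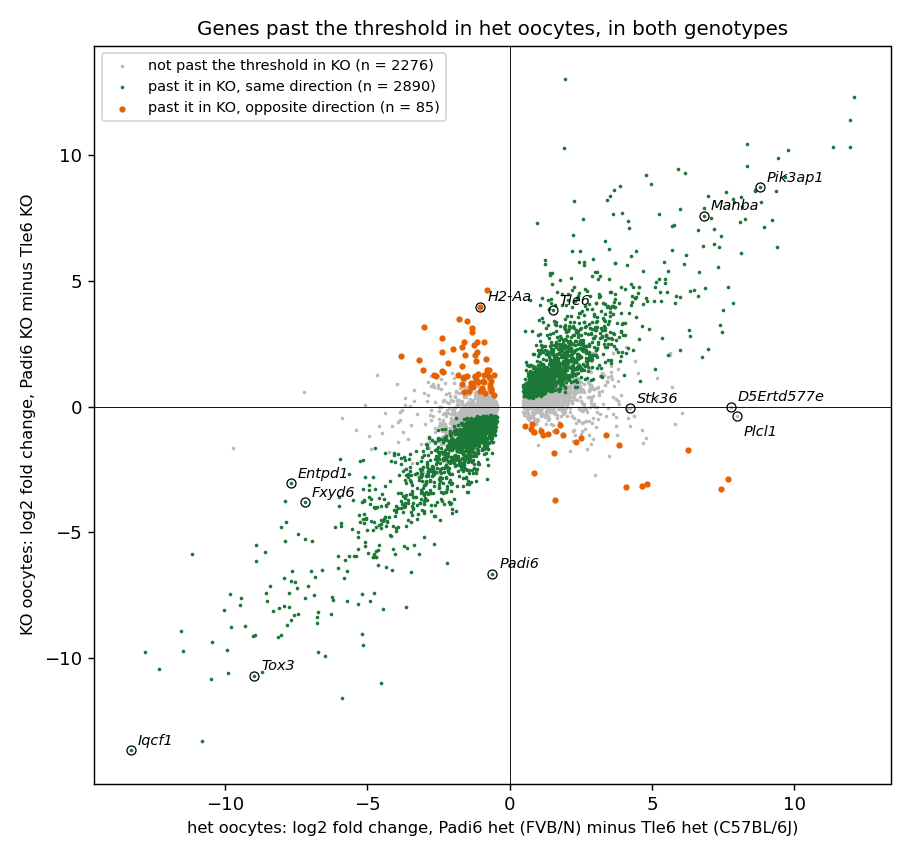
Each point is 1 of the genes past the test in het oocytes and tested in KO, with the log2 fold change of Padi6 het (FVB/N) over Tle6 het (C57BL/6J) on the x axis and that of Padi6 KO over Tle6 KO on the y axis. Green points (2890) passed in KO in the same direction, orange points (85) in the opposite one, and Stk36, Plcl1 and D5Ertd577e lie near 0 on the y axis.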

How the data were processed

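RNA-seq counts per gene were deposited by the authors as raw whole numbers, 1 file per library. Reads were processed with bcl2fastq 2.20.0.422, cutadapt 2.8, STAR 2.7.8a and HTSeq 2.0.2 on mm39, per the submitters' processing notes. The annotation release and strand setting were not given in any source used here. Rows that name no gene and 92 spike-ins were left out, and libraries A and B of a replicate were added. Of 53700 gene IDs, 52147 matched a reference name. CPM values were computed with TMM factors over the 12 replicates, while marker sums and the mitochondrial share use plain totals. Lines were compared with edgeR 4.0.16 in R 4.3.3 (filterByExpr, TMM, robust quasi-likelihood test, Benjamini-Hochberg adjustment over all genes, threshold 0.05). Log2 fold changes are FVB/N minus C57BL/6J. The edgeR test was also run on simulated counts with known changes, and the outcome is not given here. DESeq2 1.42.0, limma 3.58.1, other scalings and filters, a replicate block and left-out libraries were alternatives.

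The members and gene lists were chosen with earlier results of these data known. Genes were named by rule: Padi6, Tle6, Nnt, the subcortical maternal complex list, the 10 largest folds each way (protein-coding, 10 CPM or more, no overlap, no Gm or Rik name), the 5 most abundant each way, up to 2 genes past the test per list by smallest p, and all of them in the strain list. Other list members named were chosen after their values were seen.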

Additional observations from a re-analysis of the deposited data

Results flagged for a closer look

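For 14 named genes the line difference itself differed between het and KO oocytes (edgeR interaction over the 12 replicates, a test chosen after the data were seen; 924 of 21392 genes passed). The values are the het minus the KO log2 fold change. For the disrupted genes they were -2.33 for Tle6 and 6.02 for Padi6. Plcl1 (8.31), D5Ertd577e (7.75) and Stk36 (4.30) differed between the lines in het and had KO differences of -0.36, 0.00 and -0.07. Entpd1 (-4.65), Fxyd6 (-3.41) and Pramef8 (-1.08) were lower in FVB/N in both, by more in het. Zfp69 (-1.68) and H2-Aa (-5.02) were lower in FVB/N in het and higher in KO. Mbd3 (1.53), Atf4 (1.19), Dnajb9 (-1.33) and Btg2 (-1.41) had KO differences between -0.06 and 0.17.

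Spike-in counts, which no comparison uses, were 7116 and 7053 in Padi6 het replicates 1 and 2, against 22 to 45 in the other 5 het libraries. In the Padi6 KO replicates they were 13772, 4413 and 4009, and in the Tle6 KO libraries 5 to 42. What set these counts apart was not tested.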

How the results depend on the processing

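Of 5415 genes past the test, 1036 passed a test for at least 2-fold change and 2260 passed without library B of Tle6 het replicate 2. With the replicate block 1485 passed, and the samples share only a number (correlations of deviations -0.178 and -0.074). Leaving out 1 replicate gave 2797 to 6756 genes. In KO oocytes, 6463 became 3674 at a mean of 5 CPM or more and 1855 for at least 2-fold change. The other settings run gave counts within 1.5 times. The sign turned for 3 genes that did not pass: Nlrp5 (0.24 with total count scaling, -0.2159 to 0.1221 with 1 replicate left out), Nlrp4f (0.2601 with total counts, 0.0075 at 5 CPM or more, 0.0274 without library B, -0.204 to 0.1299 with 1 replicate left out) and Nlrp2 (0.2251 with total counts, -0.3225 to 0.2021 with 1 replicate left out). The cause was not tested. Of 98 genes picked by the naming rule and tested, 92 passed, and not all of them are described above. Of these 92, 55 no longer passed at 2-fold, 36 with the block, 38 without library B, 9 with total counts and 22 with technical libraries as replicates.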

Other observations

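Among protein-coding genes the directions differed with transcript length in these libraries. Of the shortest genes (up to 3187 bases, with genes split evenly into 3 classes) 783 genes were higher and 657 lower in FVB/N, of the middle class 694 and 806, and of the longest (from 5821 bases) 576 and 931, with medians of 0.14, 0.05 and -0.08. Of 14147 protein-coding genes tested 31.4% passed, of 1247 lincRNAs 26.1% and of 2045 processed pseudogenes 11.8%. Over the chromosomes with more than 100 genes tested the share ran from 22.8% on X to 31.9% on chromosome 19.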
